A study of Rattus norvegicus with 6 samples.

Results

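Voltage-gated calcium channel subunit genes were read in the substantia nigra pars compacta of adult male Sprague Dawley rats, 5 months old. The members were 9 listed genes, Cacna1a, Cacna1b, Cacna1c, Cacna1d, Cacna1g, Cacna2d1, Cacnb2, Cacnb3 and Cacnb4, and a probe belonged to them if its accession, without version, was a RefSeq transcript of one of these genes. This gave 8 of the 33849 probes on the array, for 7 of the 9 genes (of 4013 genes named on the array), with Cacna1a carried by 2 probes. Cacna1d and Cacnb4 had no probe by this rule and were not analysed here, so that Cacna1c was the only L-type gene with values. The rotenone group was 3 rats (16, 13 and 9) whose subcutaneous minipumps released rotenone, which blocks complex I of the respiratory chain, with 0.5 mg/kg released per day for 28 days. The solvent group was 3 rats (11, 7 and 1) with the same surgery and pumps filled with the solvent alone, dimethylsulfoxide and polyethylene glycol with a dispersing surfactant. Both groups thus carried the solvent, the implant and the anaesthesia. The region was taken by laser capture, 2 µg of its total RNA was amplified, and each rat gave 1 single-channel array.

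A voltage-gated calcium channel is built on a pore-forming alpha1 subunit, whose gene sets the current type: Cacna1c and Cacna1d give L-type, Cacna1a P/Q-type, Cacna1b N-type and Cacna1g T-type channels. Cytosolic beta subunits (the Cacnb genes) and extracellular alpha2delta subunits (the Cacna2d genes) bring high-voltage-activated pores to the membrane and tune their gating, while T-type pores can work without them. Dopamine neurons of the pars compacta fire as pacemakers, and calcium that enters through L-type channels during this firing adds to their metabolic load.

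No subunit gene differed between rotenone and solvent rats beyond the test's threshold. Cacnb3 was measured well above background in all 6 rats and had nearly equal means in both groups. Cacnb2 had a higher mean and Cacna2d1 a lower mean with rotenone, by about 0.3 on the log2 scale each, within the spread between rats. The pore genes, Cacna1c among them, lay at or near background and could not be tested.

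The 6 arrays had 44.2% to 51.5% of their probes above background, a term used here for spots that carry neither the low-signal nor the masked flag of the scanner. The array of rotenone rat 16 stood apart, with a mean correlation of 0.953 with the others across probes, against 0.968 to 0.972 for the rest, and the lowest median net signal. The header date of solvent rat 7 differed from that of the other 5 arrays. What the date records is not stated. Of the 12 dopamine neuron marker genes on the array by name, 11 could be tested, and Th, Slc6a3 and Slc18a2 were above background in all 6 rats. Th, which makes the dopamine precursor, had a mean of 12.85 with rotenone and 12.74 with solvent on the normalized log2 scale. Of the 11 tested markers 4 had higher and 7 lower means with rotenone (median difference -0.17), and 0 passed an adjusted p of 0.05 in limma. The median is the difference of Pitx3, which was above background in the 3 solvent rats alone. Its difference thus decided whether it was tested. The transporter genes Slc18a2 and Slc6a3 differed by -0.54 and -0.20, the groups of Slc6a3 without overlap, as at 4.89% of tested probes in this direction. Nr4a2 (-0.79) and Sncg (-0.67), named after their values were seen, were the 2 of the 11 with an unadjusted p below 0.05 in limma. Over all tested probes 4.94% had such a p, 2.95% lower with rotenone. The part of these 2 genes in the results was not tested. The GABA neuron gene Gad1, the astrocyte gene Gfap, the myelin gene Mbp and the microglial gene Aif1 were above background in all 6 rats too, so RNA of other cell types was present in the captured tissue. Not every marker of these cell types was. The astrocyte genes Aqp4 and Slc1a2 and the microglial Cx3cr1 were above background on 0 arrays. Ptprc of microglia was so on 1, Cldn11 of oligodendrocytes on 2, and of the GABA genes Gad2 on 3 and Slc32a1 and Sst on 5. In such bulk RNA, fewer cells of a type and less RNA per cell cannot be told apart.

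Of the 8 subunit probes, 1 was above background on all 6 arrays and 3 were so on none. Over all 4675 probes with a gene symbol, 39.8% were above background on all 6 arrays and 32.1% on none. Probes were tested if above background on at least 3 of the 6 arrays, which 16708 probes were, among them the 3 subunit probes of Cacnb3, Cacnb2 and Cacna2d1. Cacna2d1 passed this filter through 2 solvent and 1 rotenone array and Cacnb2 through 3 rotenone and 1 solvent array, so that the filter favoured a difference at both. The other 5 probes have values without a test: 3 of their 30 values were above background, and their normalized log2 levels spanned 5.80 to 6.30.

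**Figure D1:**
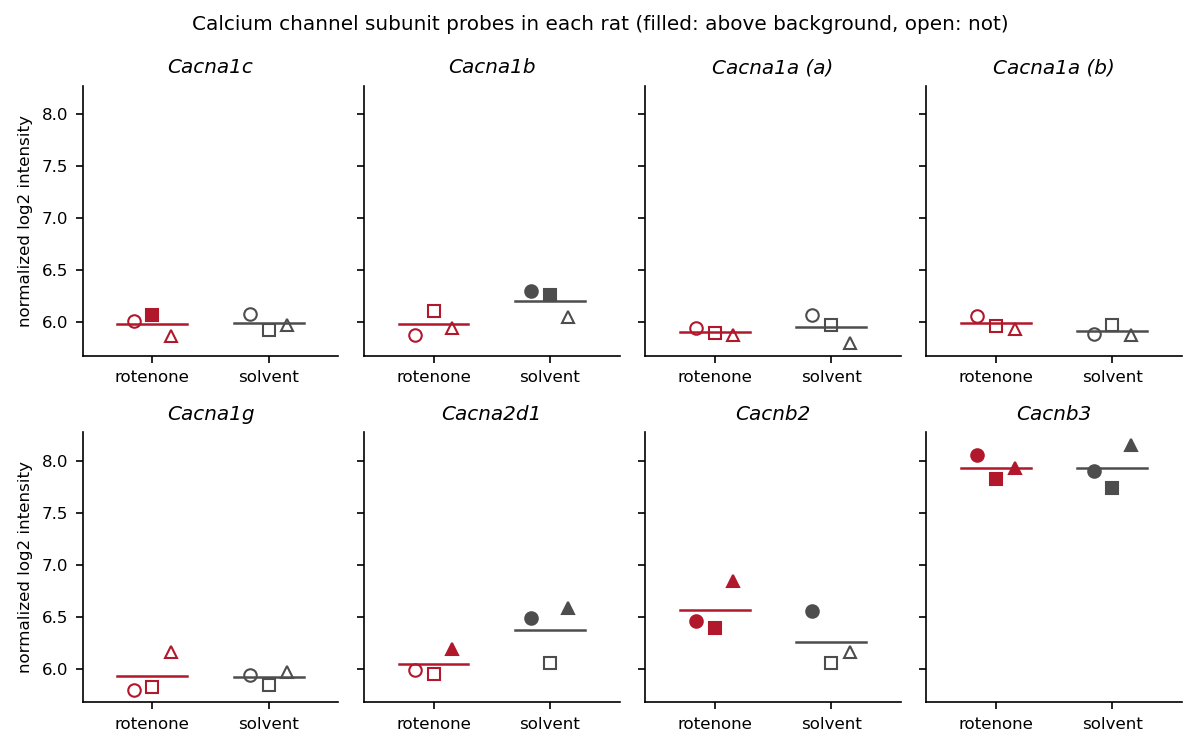
Normalized log2 intensity (vertical axis) of the 8 subunit probes in the 3 rotenone and the 3 solvent rats. Filled symbols are above background and open symbols are not, circles, squares and triangles stand for rats 16, 13 and 9 with rotenone and 11, 7 and 1 with solvent, and lines are group means. Cacna1a (a) is probe GE20056 and (b) probe GE1165021. Cacnb3 is filled in all 6 rats, whereas Cacna1a and Cacna1g are open in all 6.

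Cacna1c, the L-type pore gene (probe GE21833), had levels of 6.01, 6.07 and 5.87 in rotenone rats 16, 13 and 9, against 6.08, 5.92 and 5.98 in solvent rats 11, 7 and 1. The groups overlapped, and rotenone rat 13 was the only rat marked above background. The means were 5.98 ± 0.11 with rotenone and 5.99 ± 0.08 with solvent (SD, n = 3 each), a difference of -0.01 whose sign depended on the scaling, at -0.22 with plain background subtraction and 0.13 with the authors' scaled values. The net signal of the spots, spot mean less local background, was 7.87, 11.7 and 2.48 in these rotenone rats and 11.9, 5.33 and 7.71 in the solvent rats. On every array this was under the level that 95% of the 256 negative control spots stayed below. The share of negative spots with a lower signal ran from 37.9% to 94.1% in rotenone rats and from 49.6% to 94.1% in solvent rats. These arrays therefore give no measured level of Cacna1c in either group.

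The N-type gene Cacna1b, whose channels feed transmitter release, had levels of 5.88, 6.11 and 5.95 in rotenone rats 16, 13 and 9 and of 6.30, 6.26 and 6.05 in solvent rats 11, 7 and 1. Solvent rats 11 and 7 were above background and lay over all rotenone rats, while solvent rat 1 lay under rotenone rat 13. No rotenone rat was above background, so the rotenone mean is only a bound. For a comparison, each rotenone value was set to the lowest signal counted as above background on its array, or kept where higher. Against this the solvent mean of Cacna1b was 1.12-fold higher. Solvent rat 1 was not above background either, so the solvent mean is no lower limit and 1.12-fold is not a least difference. The figure compares group means without their spread, and the probe was not tested. The measured difference was -0.23, and -1.44 with plain background subtraction and -0.95 with the authors' scaled values. By net signal, rotenone rat 13 exceeded 96.1% and solvent rat 1 95.7% of the negative control spots, though the scanner flag counted neither as above background.

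Cacna1a, the P/Q-type pore gene of fast transmitter release, was below background on all 6 arrays at both of its probes. GE20056 ranged from 5.88 to 5.94 in rotenone rats and from 5.80 to 6.07 in solvent rats, and GE1165021 from 5.94 to 6.06 in rotenone rats and from 5.88 to 5.97 in solvent rats. The differences of the 2 probes, -0.04 and 0.08, had opposite signs. They were -0.10 and 0.81 with plain background subtraction and -0.22 and 0.23 with the authors' scaled values, and GE20056 was at 0.017 without solvent rat 11. Cacna1g, the T-type pore gene, was also below background in all 6 rats, at 5.80, 5.83 and 6.16 in rotenone rats 16, 13 and 9 and 5.94, 5.85 and 5.97 in solvent rats 11, 7 and 1. In rotenone rat 9 its net signal exceeded that of 99.6% of the negative control spots, though the scanner flag did not count it as above background. Its highest and its lowest value both came from rotenone rats, and the groups overlapped. Its difference was near 0 (0.00844), -0.73 with plain subtraction and 0.38 with the authors' scaled values.

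**Figure D2:**
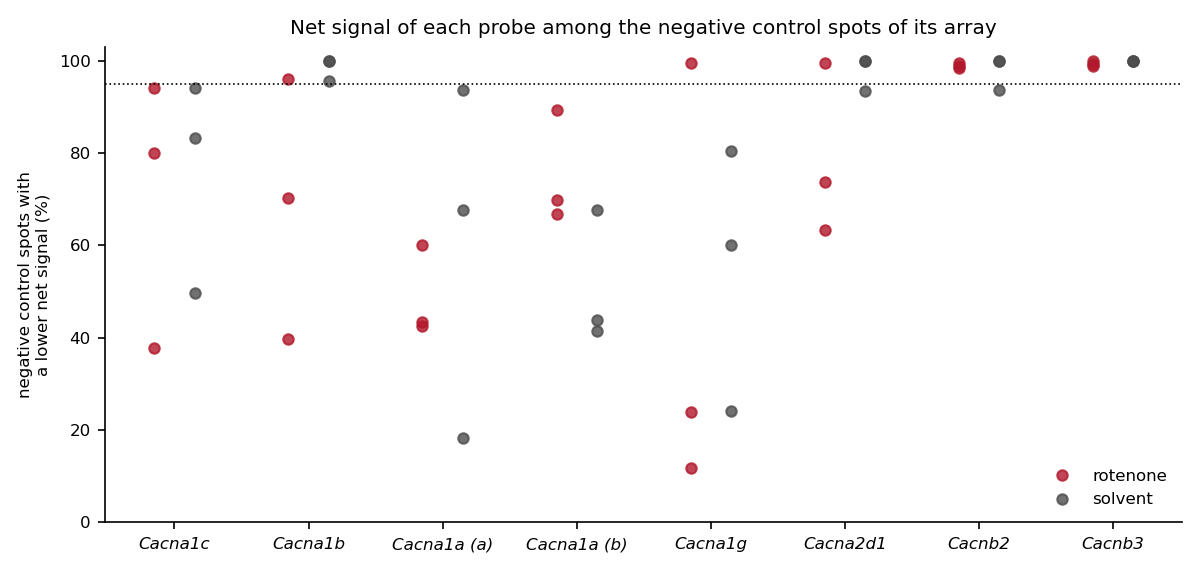
Share of the 256 negative control spots of each array with a net signal below that of the subunit probe (vertical axis, percent), for each probe and rat, with rotenone left of solvent. The dotted line marks 95%. Cacna1c and both Cacna1a probes (a is GE20056, b is GE1165021) lie under it on all 6 arrays, and Cacnb3 above it on all 6.

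Cacna2d1, the alpha2delta subunit to which gabapentin binds (probe GE20057), had levels of 5.99, 5.95 and 6.19 in rotenone rats 16, 13 and 9, against 6.48, 6.05 and 6.58 in solvent rats 11, 7 and 1. Solvent rats 11 and 1 were above all rotenone rats, solvent rat 7 lay among them and the groups overlapped. The spot of rotenone rat 16 also carried the scanner's contamination mark. The net signal was 7.0, 6.14 and 16.5 in these rotenone rats and 35.1, 11.4 and 45.6 in the solvent rats. The means of the log2 levels were 6.05 ± 0.13 with rotenone and 6.37 ± 0.28 with solvent (SD, n = 3 each). The difference of -0.33 ± 0.19 (SE) had a 95% interval from -0.74 to 0.09, and did not pass limma's moderated test (unadjusted p 0.109, adjusted p 0.895, Benjamini-Hochberg over all probes tested). Without solvent rat 7 the difference was -0.48 (unadjusted p 0.0345, adjusted p 1.00 in limma), and without rotenone rat 16 it was -0.32.

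Cacnb2, a beta subunit gene (probe GE19743), had levels of 6.46, 6.40 and 6.84 in rotenone rats 16, 13 and 9, against 6.56, 6.06 and 6.17 in solvent rats 11, 7 and 1. All rotenone rats were above background and above solvent rats 7 and 1, while solvent rat 11 lay between rotenone rats 16 and 9. The net signal was 22.9, 30.0 and 57.7 in these rotenone rats and 40.2, 11.6 and 18.5 in the solvent rats. The means of the log2 levels were 6.57 ± 0.24 with rotenone and 6.26 ± 0.27 with solvent (SD, n = 3 each). The difference was 0.31 ± 0.20 (SE) with a 95% interval from -0.13 to 0.74 and did not pass (unadjusted p 0.152, adjusted p 0.895 in limma). It was 0.17 without rotenone rat 9, 0.38 without rotenone rat 16 and 0.45 without solvent rat 11.

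Cacnb3, the other measured beta subunit gene (probe GE19992), had levels of 8.05, 7.82 and 7.93 in rotenone rats 16, 13 and 9, against 7.90, 7.74 and 8.15 in solvent rats 11, 7 and 1. All 6 rats were above background, and the solvent rats spanned the rotenone rats. The net signal was 167.5, 178.3 and 183.75 in these rotenone rats and 189.1, 171.5 and 253.6 in the solvent rats, and all 6 spots carried the scanner's mark for irregular shape. The means of the log2 levels were 7.94 ± 0.11 with rotenone and 7.93 ± 0.21 with solvent (SD, n = 3 each). The difference of 0.00258 ± 0.17 (SE) had a 95% interval from -0.38 to 0.38 (adjusted p 0.999 in limma). The sign of this difference turned with the scaling: it was -0.11 with the medians of the arrays equalised and -0.014 with cyclic loess.

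Among the 3 tested subunit probes, 0 passed an adjusted p of 0.05, where 0% of the 16708 tested probes did, and 0 had an unadjusted p below 0.05, where 4.94% of tested probes did (1.99% higher and 2.95% lower with rotenone). At an unadjusted p below 0.05 limma gave 332 probes higher and 493 lower with rotenone, and 152 higher and 785 lower with the medians of the arrays equalised. None of the 3 had groups without overlap, where 9.97% of tested probes did (5.08% higher and 4.89% lower with rotenone). The size of the difference exceeded that of 83.8% of tested probes for Cacna2d1, 81.1% for Cacnb2 and 1.06% for Cacnb3. The scale bears on these sizes, since the offset added at background correction draws the differences of dim probes towards 0. With an offset of 16 in place of 50 the difference was -0.59 for Cacna2d1 and 0.52 for Cacnb2, and with plain background subtraction it was -1.37 and 1.00. Neither passed under these settings (for both genes adjusted p 0.901 with the offset of 16 and 0.898 with subtraction, in limma). With 3 rats against 3, an exact permutation test of a single probe could not go below p = 0.1.

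**Figure D3:**
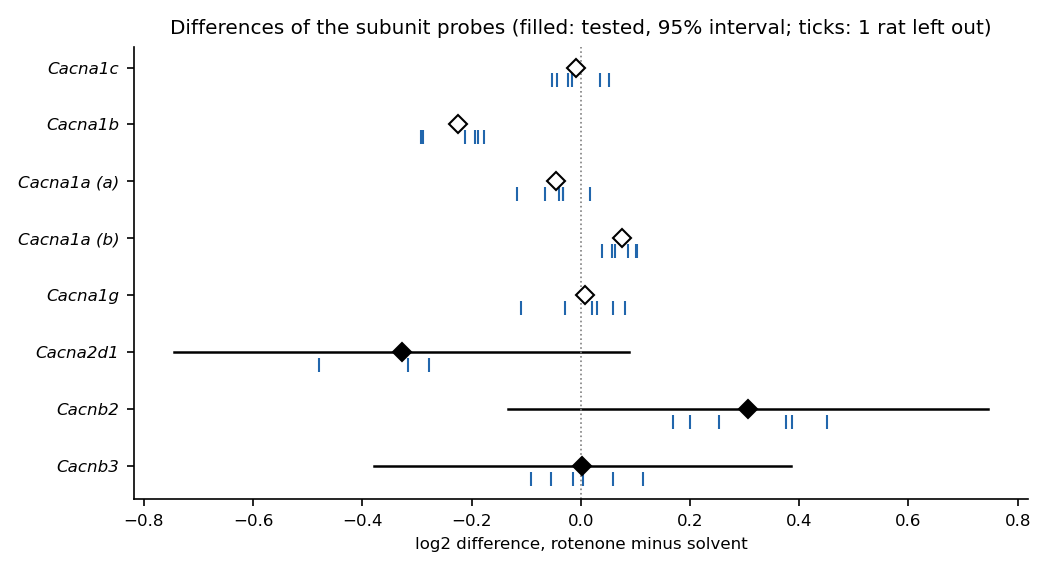
Difference between rotenone and solvent means (horizontal axis, log2) for the 8 subunit probes. Filled diamonds were tested and carry their 95% interval, open diamonds were near background and not tested, and blue ticks are the values with 1 rat left out, where the probe still passed the filter if it was tested. All 3 intervals include 0, and the ticks of Cacnb3 lie on both sides of it.

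Set beside the other subunits, the L-type probe lay within their range. Its difference was -0.01, while the 7 other probes had a median of 0.00258 and ranged from -0.33 (Cacna2d1) to 0.31 (Cacnb2), 4 of them higher and 3 lower with rotenone. Over all tested probes the median difference was 0.00892, with 51.6% higher. The deviation of Cacna1c from its solvent mean was 0.02, 0.08 and -0.13 in rotenone rats 16, 13 and 9 and 0.09, -0.07 and -0.02 in solvent rats 11, 7 and 1. The median deviation of the other 7 probes was -0.00661, -0.09 and -0.00217 in these rotenone rats and 0.10, -0.07 and -0.03 in the solvent rats. With 5 of the 8 probes below background in most rats, this comparison sets background-level values against each other, and no L-type gene was tested.

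The RefSeq promoter table (GRCr8) held 7 of the 9 listed genes. The 250 bases upstream of the gene start are shown for Cacnb3, above background in every rat, and for Cacna1c, below it in all but 1, because they differ in CG dinucleotides, which are set in capitals. Both are written on the gene's strand. Cacnb3 lies at chr7:131666301-131666550, plus strand, and Cacna1c at chr4:154051749-154051998, minus strand.
Cacnb3: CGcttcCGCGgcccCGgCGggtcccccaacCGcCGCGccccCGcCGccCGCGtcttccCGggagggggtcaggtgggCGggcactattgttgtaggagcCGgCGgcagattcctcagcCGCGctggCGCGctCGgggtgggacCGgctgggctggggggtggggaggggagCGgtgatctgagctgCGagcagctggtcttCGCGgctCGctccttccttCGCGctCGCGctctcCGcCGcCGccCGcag
Cacna1c: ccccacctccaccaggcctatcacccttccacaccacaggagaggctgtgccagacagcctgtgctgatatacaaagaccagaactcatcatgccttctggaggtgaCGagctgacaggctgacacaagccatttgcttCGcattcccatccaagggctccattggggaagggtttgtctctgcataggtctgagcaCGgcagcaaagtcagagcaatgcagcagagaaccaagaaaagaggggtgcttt
The Cacnb3 sequence held 35 CG, more than 97.4% of the 33469 promoters of this length, and the Cacna1c sequence held 3, fewer than 62.6% of them. The motif searched was CG, which reads the same on both strands and of which 92.2% of these promoters hold at least 1. Over genes with a symbol, the median was 16 CG for the 1388 with a promoter entry that were above background in all 6 rats and 7 for the 928 that were so in none. Here a gene with several promoter entries was counted by the entry with the most CG. Cacna1a and Cacna1b held 34 and 28 CG, and their probes were below background on 6 and 4 of the 6 arrays. The Cacnb2 promoters held 30 and 3 CG. The count of CG thus did not sort these subunits by whether their probes were above background, and the table's start need not be the one used in this tissue.

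Of 17 further subunit genes listed, 8 were on the array by name and 4 could be tested. Of these 4, 3 had higher and 1 lower means with rotenone, and none passed an adjusted p of 0.05 in limma. Cacng1, among the higher, met the filter through 2 rotenone and 1 solvent array, which favoured its direction. Cacnb1, another beta subunit gene, was above background in all 6 rats, at 8.89 ± 0.26 with rotenone and 8.84 ± 0.22 with solvent (SD, n = 3 each), a difference of 0.05 that became -0.051 with the medians of the arrays equalised. Cacna2d3, a second alpha2delta gene, was also above background in all 6 rats and differed by -0.16 (95% interval -0.56 to 0.24, adjusted p 0.910 in limma). The pore genes Cacna1e and Cacna1i were above background on 1 and 2 arrays and were not tested.

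The other calcium genes were grouped by their step, and 0 of the genes tested in any group had an adjusted or an unadjusted p below 0.05 in limma. Over all tested probes 0% had such an adjusted p and 4.94% such an unadjusted p, so few were to be found among so few genes. Of the proteins that bind or regulate the channels, 3 of 7 tested genes were higher and 4 lower (median difference -0.00732 on the log2 scale). Calm3, one of the genes for calmodulin, the calcium sensor bound to the pores, was at 9.25 ± 0.23 with rotenone and 9.70 ± 0.39 with solvent, a difference of -0.45 (interval -0.94 to 0.04). Hpcal1, a neuronal calcium sensor gene, passed the filter through the 3 solvent rats alone, so that its difference decided whether it was tested. Its levels were 5.86, 6.20 and 5.86 in rotenone rats 16, 13 and 9 and 6.20, 6.38 and 6.19 in solvent rats 11, 7 and 1, and the groups overlapped. Of the release proteins that couple to the channels, 3 of 6 were higher and 3 lower (median 0.02). Cplx2, which clamps the fusion machinery, differed by -0.48 (interval -1.17 to 0.20) and by -0.10 without rotenone rat 13.

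Among cytosolic calcium buffers and sensors, 2 of 9 tested genes were higher and 7 lower (median -0.03). Ocm and Rcvrn, both lower, passed the filter through 2 solvent and 1 rotenone array each, which favoured this direction. Calb1, the buffer calbindin that marks a subset of dopamine neurons, was at 7.58 ± 0.29 with rotenone and 7.62 ± 0.28 with solvent (SD, n = 3 each), which differ by -0.04 (interval -0.50 to 0.43). Calb2 (calretinin) differed by 0.39 (interval -0.18 to 0.97), by 0.099 without rotenone rat 16 and by 0.68 without rotenone rat 13. Vsnl1 (visinin-like 1) differed by -0.21, and by 0.020 without solvent rat 7. All 4 tested genes of calcium extrusion had lower means with rotenone (median -0.34, and -0.65 with plain background subtraction). With scanner-marked spots left out the value was -0.18, which is the difference of Slc8a1 alone. Slc8a1 passed the filter through 3 solvent and 1 rotenone array, and Slc24a2 through 2 solvent and 1 rotenone array. The filter thus favoured a lower mean at both. Atp2b2, a calcium pump of the plasma membrane, had levels of 9.90, 10.44 and 10.21 in rotenone rats 16, 13 and 9, against 10.57, 10.61 and 10.45 in solvent rats 11, 7 and 1. These groups did not overlap, by less than 0.01 between rotenone rat 13 and solvent rat 1, as at 4.89% of tested probes in this direction. The difference was -0.36 (interval -0.76 to 0.05, adjusted p 0.895 in limma), and -0.32 for Atp2b1, a second such pump. Without rotenone rat 16 Atp2b2 was at -0.21, and without solvent rat 1 Atp2b1 was at -0.20. Markers of neurons in general were lower as well: all 8 tested of 9 on the array had lower means with rotenone (median -0.28). Syn1 passed the filter through 3 solvent and 1 rotenone array, so that the filter favoured a lower mean there. Uchl1 passed it through 3 solvent and 2 rotenone arrays. Of the 8, 3 had an unadjusted p below 0.05 in limma, against 2.95% of all tested probes in this direction. Of 8 tested oligodendrocyte markers 6 were lower and 2 higher (median -0.26). Summed net signals of the neuron markers ran from 3301 to 5793 in rotenone rats and from 6551 to 7217 in solvent rats. These sums were not normalized. The median net signal over all probes was 11.7 to 14.8 in rotenone rats and 14.6 to 16.6 in solvent rats. The median deviation from the solvent mean in rotenone rats 16, 13 and 9 was -0.49, -0.23 and -0.27 for the extrusion genes and -0.71, -0.12 and -0.12 for the neuron markers, whose part in the result was not tested. Of the 9, 6 were above background in all 6 rats and Snap25 in none.

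Of the genes of intracellular calcium stores, 5 of 6 were higher and 1 lower (median 0.10). Itpr2, among the higher, passed the filter through 2 rotenone and 1 solvent array, so that the filter favoured its direction. The calcium pump Atp2a1 differed by 0.27 and by 0.051 without rotenone rat 16, and the scaffold gene Homer1 by 0.22 and by 0.093 without that rat. Of the genes of mitochondrial calcium uptake, 3 of 4 were higher and 1 lower (median 0.06). Vdac1, the outer membrane channel, differed by 0.38 (interval -0.016 to 0.77, adjusted p 0.895 in limma). Its groups did not overlap, as at 5.08% of tested probes in this direction. Vdac3 differed by -0.17. Without rotenone rat 16 Vdac1 was at 0.22 and Vdac3 at 0.073. The 3 tested calcium-activated channel genes had higher means (median 0.13, and 0.37 with plain subtraction and 0.58 with the authors' scaled values), with Kcnn4 at 0.21 and Kcnn3, a small-conductance potassium channel gene that paces dopamine neurons, at 0.12. Without rotenone rat 16 the median was 0.075, Kcnn4 was at 0.075 and Kcnn3 at 0.024. The median of 0.13 is the difference of Kcnmb1. This gene passed the filter through 2 rotenone and 1 solvent array, so that the filter favoured a higher mean. All 3 genes were dim, with group means from 6.02 to 6.46. Of the calcium-dependent enzymes and regulators, 6 of 11 were higher and 5 lower (median 0.04). The kinase genes Camk1 and Camk2g differed by -0.52 and -0.48, with intervals from -1.13 to 0.09 and from -1.04 to 0.07. Camk1 was at -0.27 without rotenone rat 16 and -0.28 without solvent rat 7. Camk2g was at -0.29 without rotenone rat 16, -0.26 without solvent rat 1 and -1.26 with plain background subtraction. Over all tested probes 51.6% had higher and 48.3% lower means with rotenone.

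**Figure D4:**
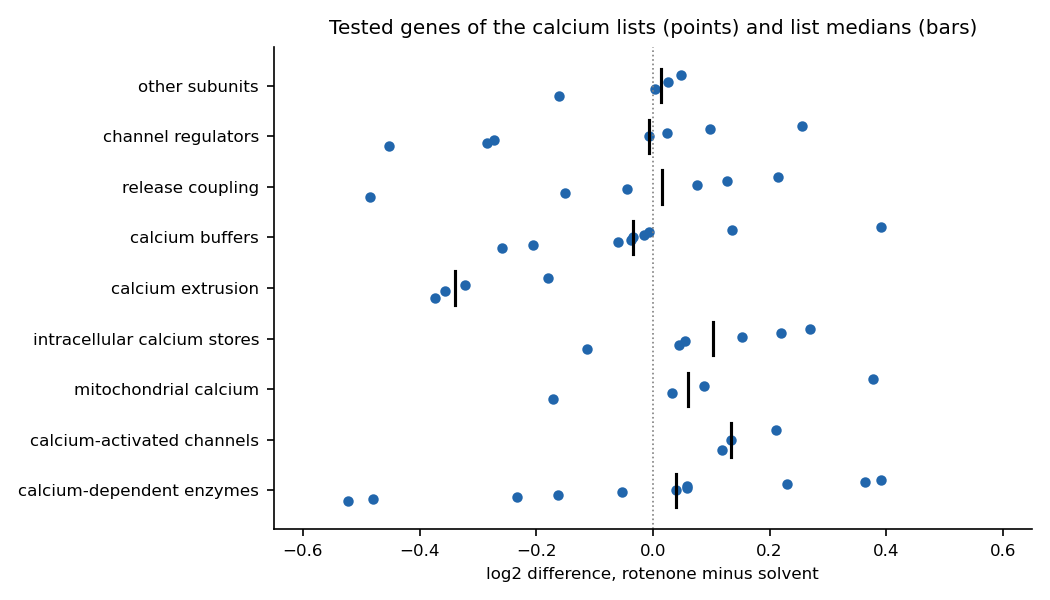
Difference between rotenone and solvent means (horizontal axis, log2) of each tested gene in the 9 calcium lists, 1 probe per gene, with the median of each list as a bar. The 4 calcium extrusion genes lie left of 0 and the 3 calcium-activated channel genes right of it, and the other lists lie on both sides. The filter favoured these sides at Slc8a1, Slc24a2 and Kcnmb1.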

How the data were processed

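Total RNA of laser-captured tissue was amplified by in vitro transcription and labelled with biotin, per the labels' protocols. The deposited scanner files give linear intensities per spot, namely the spot mean, the local background median, their difference (the net signal) and that difference scaled to an array median near 1. Which software scanned the arrays was not given. The deposited value table holds the scaled intensity, linear and with no direction in single-channel arrays. Its column medians were 0.999, 0.998 and 0.996 for rotenone rats 16, 13 and 9 and 0.994, 1.00 and 0.996 for solvent rats 11, 7 and 1. In 5 columns 100% of probe values equalled the scanner file (within 1e-06), but 0.898% for solvent rat 7, whose column stands in another order. That alternative therefore used the scaled values of the scanner files.

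Probes were named by RefSeq accession without version through a gene table of GRCr8, which named 4675 of 33849 probes (13.8%). Spots were corrected with normexp (offset 50) in limma 3.58.1 (R 4.3.3), the 256 negative and 240 positive control spots left out, and log2 values quantile-normalized. Every other spot was kept. The groups were compared with lmFit and eBayes (two-sided), and p-values adjusted by Benjamini-Hochberg over all tested probes. The test was tried on simulated data. Precision is limited by the number of arrays. The replicate is the rat. Named genes were every member probe, the 2 genes of lowest p per list, and Th, Slc6a3, Slc18a2, Calb1 and Gad1. Of the genes this rule picked, 1 is not reported here. Genes most like the L-type genes across rats were to be named as well, but no L-type probe passed the filter. Lists used 1 probe per gene, a tested probe before an untested one and then the brightest on average. Members, lists and settings were chosen with earlier results of these data known. Alternatives were other normalizations, offsets, background corrections, filters, array weights, the header date as a block, scanner-marked spots left out, and each rat left out. Since solvent rat 7 alone had another date, the block and the fit without that rat are nearly the same check.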

Additional observations from a re-analysis of the deposited data

How the results depend on the processing

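No paired analysis was possible because the rats of the groups share no number. Under 17 alternatives 0 member probes passed, and no gene of the calcium lists did. Over all probes 0 passed under 16 of them, and with a rat left out the count ran from 0 to 3, the 3 being Cdon, GE1296150 and GE1148288 without solvent rat 1. The count at an unadjusted p below 0.05 was 825, and 1582 with no filter on dim probes, 205 with scanner-marked spots left out, and from 536 to 1332 with a rat left out (1332 without rotenone rat 13, 547 without rotenone rat 16 or solvent rat 11, 536 without solvent rat 7). The gap between Cacna1c and the median of the other subunits, -0.01, was -0.12 with background subtracted and a floor, 0.092 with the authors' scaled values, and from -0.11 to 0.083 with a rat left out. The cause was not tested. Signs turned for Cacnb3 (-0.11 with median scaling, -0.014 with cyclic loess, -0.093 with the header date as a block, -0.092 to 0.11 with a rat left out), Cacnb1 (-0.051 with median scaling, -0.081 with array weights, -0.048 to 0.19 with a rat left out), Slc6a3 (0.00031) and Gad1 (0.092) with the authors' scaled values, and Vsnl1 (0.020 with the header date as a block). With a rat left out they also turned within -0.20 to 0.11 for Calb1, -0.089 to 0.038 for Gad1, -0.011 to 0.27 for Th, -0.31 to 0.073 for Vdac3 and -0.34 to 0.020 for Vsnl1. Cacna2d1 and Cacnb2 kept their direction wherever they could be tested. Cacna2d1 could not be with rotenone rat 9, solvent rat 1 or solvent rat 11 left out. The filter on all 6 arrays left out Cacna2d1 and Cacnb2, above background on 3 and 4 arrays. With scanner-marked spots left out Cacna2d1 and Cacnb3 had too few values. Low signal over background limits the pore genes.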
